A study of Homo sapiens with 2 samples.

Results

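The cytosolic heat shock proteins described here are 10 genes, matched by symbol in the deposited count table of 20802 amplicons. They are HSPA1A, HSPA1B, HSPA8, HSPH1, DNAJB1, HSPB1, HSP90AA1, HSP90AB1, BAG3 and the transcription factor gene HSF1. All 10 were found and all 10 passed the filter on low counts, at least 10 counts in at least 1 library. Their RNA was measured in 2 established human prostate cancer cell lines, MDA PCa 2b, grown from a bone metastasis, and LNCaP, grown from a lymph node metastasis. Each line had 1 library from total RNA, and the labels mark both as WT and name no agent given to the cells. Growth conditions of the cells were not given in the sources used here.

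Heat shock proteins are chaperones that hold unfolded proteins, help them fold or pass them on for degradation. HSP70 proteins bind and release short exposed stretches of a client under the control of J-domain proteins, which start ATP hydrolysis, and of exchange factors, which release ADP. HSP90 proteins act later, on nearly folded clients such as kinases and steroid receptors. HSF1 is the factor that raises transcription of these genes when unfolded protein builds up, by binding inverted repeats of GAA called heat shock elements.

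Neither line was measured in replicate, so no p-value is given. Counts were scaled to a common library size (CPM, from the library total and its TMM factor). Each ratio, MDA PCa 2b over LNCaP, carries an exact 95% interval that covers the counting error of reads only. A gene was called apart when the whole interval lay beyond 2-fold. Total counts were 8558660 in MDA PCa 2b and 10778061 in LNCaP, so that 1 count was worth 0.117 CPM in MDA PCa 2b and 0.0923 CPM in LNCaP. Each gene was read at 1 amplicon, and amplicons differ in how well they amplify, so levels are compared between libraries and not between genes. HSPA8, HSP90AA1, HSP90AB1 and HSPB1 have processed pseudogenes elsewhere in the genome, and the sources used here do not say how the authors' counting treated reads shared with them.

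The upstream sequences are shown because heat shock elements are the sequence that HSF1 binds. RefSeq start sites (GRCh38.p14) were found for 9 of the 10 genes, with 14 windows of 250 bases before a start. Searched on both strands were GAANNTTC and TTCNNGAA, each its own reverse complement, and 3-unit forms, in which a further GAA or TTC follows after 2 bases so that the units alternate. Each 3-unit form overlaps both shorter forms. A 2-unit form was present for 7 of the 9 genes, against 14% of all 27305 genes in the table. It was present in 7 of the 14 windows, against 11.6% of all 35116 windows. A 3-unit form was present for 3 genes, HSP90AB1, HSPA8 and HSP90AA1, against 0.557% of all genes. It was present in 3 of 14 windows, against 0.441% of all windows. These matches describe letters, not binding. The windows are printed 5′ to 3′ with the matched letters in capitals. HSPA1A (chr6:31815293-31815463, plus strand) and HSPA1B (chr6:31827488-31827658, plus strand) run from 250 to 80 bases before the start. The others are the stretches around the matches: HSP90AB1 at chr6:44247768-44247853 and HSPB1 at chr7:76302481-76302508, both on the plus strand, HSPA8 at chr11:123062344-123062376, HSP90AA1 at chr14:102087120-102087142 and DNAJB1 at chr19:14518427-14518484, all on the minus strand. HSPA8 and HSP90AA1 each hold a further match nearer to the start, not printed. The printed HSP90AA1 stretch overlaps an annotated exon of HSP90AA1 itself. HSP90AB1, HSP90AA1 and DNAJB1 have more than 1 start site, and their other windows held no match.
HSPA1A: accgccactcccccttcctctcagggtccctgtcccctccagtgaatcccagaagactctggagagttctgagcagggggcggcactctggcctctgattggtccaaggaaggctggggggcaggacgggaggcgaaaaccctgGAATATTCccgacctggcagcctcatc
HSPA1B: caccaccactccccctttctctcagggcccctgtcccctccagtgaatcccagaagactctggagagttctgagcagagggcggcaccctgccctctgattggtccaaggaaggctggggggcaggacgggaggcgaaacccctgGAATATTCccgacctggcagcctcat
HSP90AB1: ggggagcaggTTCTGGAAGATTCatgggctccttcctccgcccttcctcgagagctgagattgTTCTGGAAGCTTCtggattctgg
HSPB1: cttaacgagaGAAGGTTCcagatgaggg
HSPA8: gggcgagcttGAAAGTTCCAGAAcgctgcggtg
HSP90AA1: gggagggttcTTCCGGAAGGTTC
DNAJB1: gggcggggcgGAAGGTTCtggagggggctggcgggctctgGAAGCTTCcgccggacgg

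HSPA1A and HSPA1B hold the same matched letters, ending 99 and 98 bases before their starts. Over the 250 bases before the start the copies were 93.6% identical. The windows of BAG3 and HSPH1 held none of these letters.

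Taken as a group, the chaperone genes were read to nearly the same extent in both lines. The 10 genes held 44211 counts in MDA PCa 2b, 0.517% of the library (exact 95% interval 0.512 to 0.521), and 53939 counts in LNCaP, 0.5005% (0.4962 to 0.5047). The scaled sum was 5195 CPM in MDA PCa 2b and 4977 CPM in LNCaP, a ratio of 1.04 (1.03 to 1.06). HSP90AB1 and HSPA8 gave 73.6% of these counts in MDA PCa 2b and 75.3% in LNCaP, and without HSP90AB1 the ratio of the sums was 1.01 (0.991 to 1.02).

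Single genes departed from this balance. HSPA1A and HSF1, 2 of the 10 genes, were called towards MDA PCa 2b, where 10.9% of the 14418 measured genes were called in that direction. HSPA1B, 1 of the 10, was called towards LNCaP, against a background of 13.2%. Together 3 of the 10 were called, beside 24.1% of all measured genes, so the number of calls does not set these genes apart. Among measured genes with 1 coding exon, as HSPA1A and HSPA1B have, 9.93% were called towards MDA PCa 2b and 5.52% towards LNCaP, a background added after seeing the data. That group includes the measured single-exon olfactory receptor genes described below, so it is not a background of expressed genes alone. The median log2 ratio of the 10 genes was -0.03, beside 0.00 over all measured genes.

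The calls were repeated under other settings, each with its own background. Scaling by total counts called 10.7% of measured genes towards MDA PCa 2b and 13.6% towards LNCaP, and in the same order DESeq2 size factors called 10.4% and 14.2%, upper quartile scaling 12.2% and 11.9%, and totals without small nucleolar RNAs 11.6% and 12.4%. Each left 2 of the 10 genes called towards MDA PCa 2b and 1 towards LNCaP. A 1.5-fold threshold called 19.3% towards MDA PCa 2b and 22.5% towards LNCaP, with 2 of the 10 genes in each direction, HSPB1 joining HSPA1B. A 3-fold threshold called 5.9% towards MDA PCa 2b and 6.21% towards LNCaP. An assumed spread of 20% between libraries called 6.04% towards MDA PCa 2b and 6.42% towards LNCaP, and a spread of 40% called 3.63% towards MDA PCa 2b and 3.28% towards LNCaP. HSPA1A alone of the 10 was called under each of these stricter settings.

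**Figure D1:**
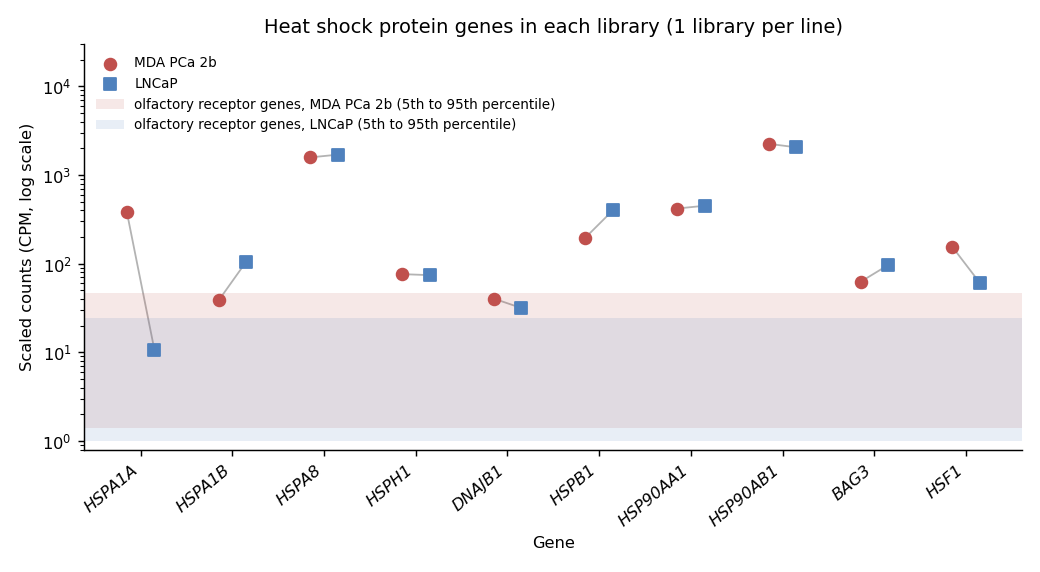
Scaled counts (CPM, log axis) of the 10 genes in MDA PCa 2b (red circles) and LNCaP (blue squares), 1 library each, with shaded bands for the 5th to 95th percentile of 380 olfactory receptor genes in each library. HSPA1A stands at 380 CPM in MDA PCa 2b and at 10.7 CPM in LNCaP, inside the LNCaP band, while HSPA8 and HSP90AB1 lie highest in both.

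HSPA1A and HSPA1B encode the stress-inducible cytosolic HSP70 and stand near each other on chromosome 6. HSPA1A had 3237 counts (380 CPM) in MDA PCa 2b and 116 counts (10.7 CPM) in LNCaP. Its ratio of 35.5 (29.5 to 43.1) was the farthest from 1 among the 10 genes. Its size rests on a LNCaP count that lies within the range of olfactory receptor genes, described below as a background. With their median subtracted the ratio was 146, a value that depends on the background chosen, so the size of the ratio is not settled. HSPA1B went the other way, with 328 counts (38.5 CPM) in MDA PCa 2b and 1137 counts (105 CPM) in LNCaP, 2.72-fold higher in LNCaP (2.41 to 3.09). HSPA1A made up 90.8% of the reads of both copies in MDA PCa 2b (exact 95% interval 89.8 to 91.7) and 9.26% in LNCaP (7.71 to 11.0).

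The split between the copies is uncertain. In GENCODE release 29 the coding sequences are 1923 bases long in both and differ at 4 bases, and the longest run without a difference is 1709 bases. The 3′ untranslated ends are unlike, with 48.2% identity over their alignment. The table does not give the position of either amplicon, so a read of the shared coding sequence could have been assigned to either gene. This was not tested. The stretch of 60 coding bases that holds 2 of the 4 differences, bases 1846 to 1905 from the start codon, shows how little separates the copies, with the differing bases in capitals.
HSPA1A: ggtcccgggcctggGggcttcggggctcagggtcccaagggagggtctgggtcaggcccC
HSPA1B: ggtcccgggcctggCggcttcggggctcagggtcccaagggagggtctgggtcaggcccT

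Moving a read from a copy to the other leaves their sum as it is. The sum does depend on how well each amplicon worked, also relative to the other and in each line, which is not known, and so does any ratio made with it. It was 3565 counts (419 CPM) in MDA PCa 2b and 1253 counts (116 CPM) in LNCaP, a ratio of 3.62 (3.40 to 3.87). Counted as 1 gene, the sum of these counts was called towards MDA PCa 2b, and no gene of the group was then called towards LNCaP.

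Reads of genes that epithelial cells do not use bear on the low values of these copies, since both have a single coding exon and an amplicon within an exon can also be made from genomic DNA. The 380 olfactory receptor genes other than OR51E1 and OR51E2 served for this, 357 of the 364 with a known exon number having 1 coding exon. Their median was 135 counts (15.9 CPM) in MDA PCa 2b and 89 counts (8.21 CPM) in LNCaP, and together they held 0.723% of the counts in MDA PCa 2b and 0.388% in LNCaP. The ratio of their scaled sums was 1.88 (1.86 to 1.91). In LNCaP, 131 of the 380 had at least as many counts as HSPA1A, so HSPA1A was not above this background there. HSPA1B was reached by 35 of the 380 in MDA PCa 2b and by 0 in LNCaP, and HSPA1A by 0 in MDA PCa 2b. With the olfactory receptor median subtracted from each copy, an alternative added after seeing the data, the ratio was 146 for HSPA1A, 0.235 for HSPA1B and 3.90 for their sum. No interval is given, because the background is not known exactly. Olfactory receptor counts in LNCaP ran from 10.9 to 264 (5th to 95th percentile), a range that holds the 116 counts of HSPA1A. The HSPA1A ratio therefore has no reliable upper limit. The value for HSPA1A moved most. Whether genomic DNA adds to the counts of these genes was not tested. The background is not the same for every single-exon gene: the related HSPA1L, a testis-expressed HSP70, had 4 counts in MDA PCa 2b and 1 in LNCaP.

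**Figure D2:**
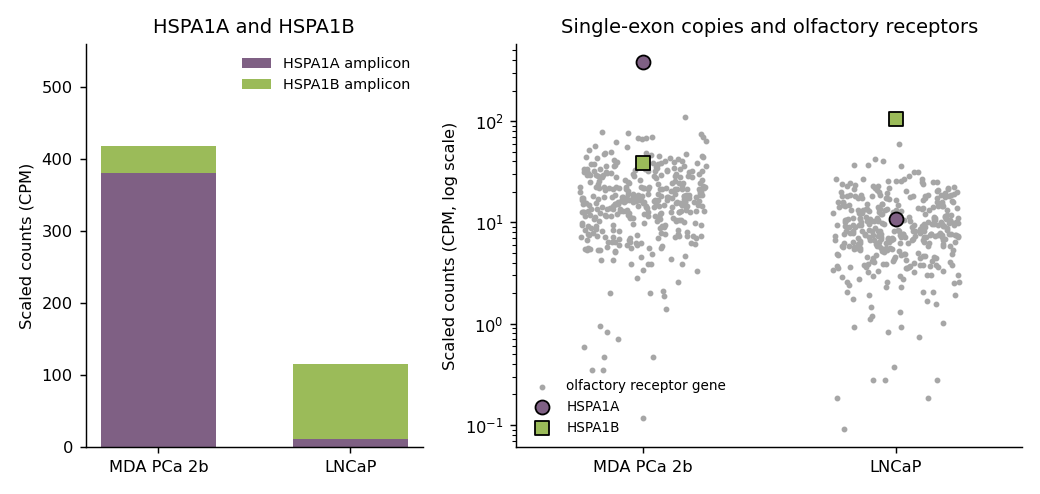
Left, scaled counts (CPM) of the HSPA1A and HSPA1B amplicons stacked for MDA PCa 2b and LNCaP, 1 library each. Right, the same copies (log axis) over 380 olfactory receptor genes (grey points, genes at 0 not drawn): HSPA1A lies above all of them in MDA PCa 2b and among them in LNCaP, and HSPA1B lies in their upper range in MDA PCa 2b and above all of them in LNCaP.

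HSPA8 encodes the constitutive HSP70, the HSC70 of unstressed cells. It had 13448 counts (1580 CPM) in MDA PCa 2b and 18381 counts (1696 CPM) in LNCaP, a ratio of 0.932 (0.911 to 0.953). The lines lay close together. Set against HSPA8 within the same library, which removes the library scaling, the inducible copies together stood at 0.265 counts per HSPA8 count in MDA PCa 2b and 0.0682 in LNCaP. The odds ratio for this pair was 3.89 (3.63 to 4.17). It follows from the same counts, and lies close to the scaled ratio of the sum because HSPA8 lay close to 1.

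HSPH1, the HSP110 that acts as an exchange factor of HSP70, had 649 counts (76.3 CPM) in MDA PCa 2b and 805 counts (74.3 CPM) in LNCaP. Its ratio of 1.03 (0.924 to 1.14) leaves no difference beyond counting error. DNAJB1, the stress-inducible J-domain partner of HSP70, had 344 counts in each library, which is 40.4 CPM in MDA PCa 2b and 31.7 CPM in LNCaP and a ratio of 1.27 (1.09 to 1.48). BAG3, an exchange factor that links HSP70 and small heat shock proteins to autophagy, had 532 counts (62.5 CPM) in MDA PCa 2b and 1046 counts (96.5 CPM) in LNCaP, 1.54-fold higher in LNCaP (1.39 to 1.72). DNAJB1 was reached by 29 of the 380 olfactory receptor genes in MDA PCa 2b and by 6 in LNCaP, BAG3 by 10 and 0, and HSPH1 by 2 and 0, although these 3 genes have several coding exons. None of these 3 HSP70 partners was called, beside 24.1% of all measured genes. DNAJB1 lay on the side of MDA PCa 2b and BAG3 on that of LNCaP.

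HSPB1, the small heat shock protein HSP27 that holds unfolded proteins without ATP, had 1680 counts (197 CPM) in MDA PCa 2b and 4345 counts (401 CPM) in LNCaP. It was 2.03-fold higher in LNCaP (1.92 to 2.15), and the interval reaches below 2-fold, so it was not called. Its ratio lay between 0.479 and 0.524 over 5 ways of scaling the libraries. BAG3 binds HSPB1, and both were lower in MDA PCa 2b, but neither was called. With an assumed spread of 20% between libraries, the interval was 0.369 to 1.14 for BAG3 and 0.282 to 0.86 for HSPB1. The ratio of BAG3 to HSPB1, which follows from the same counts, differed less between the lines. It was 0.317 BAG3 counts per HSPB1 count in MDA PCa 2b and 0.241 in LNCaP (odds ratio 1.32, 1.17 to 1.48).

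HSP90AA1 and HSP90AB1 encode the inducible and the constitutive cytosolic HSP90. HSP90AA1 had 3562 counts (419 CPM) in MDA PCa 2b and 4875 counts (450 CPM) in LNCaP, a ratio of 0.930 (0.891 to 0.972). HSP90AB1 had 19112 counts (2246 CPM) in MDA PCa 2b and 22230 counts (2051 CPM) in LNCaP, a ratio of 1.09 (1.07 to 1.12). Both genes lay close to 1. The balance of inducible to constitutive HSP90 was 0.186 in MDA PCa 2b and 0.219 in LNCaP (odds ratio 0.850, 0.810 to 0.891), opposite in direction to that of HSP70 and much smaller. HSP90AA1 kept the same relation to HSPA8, with 0.265 counts per HSPA8 count in both libraries (odds ratio 0.999, 0.951 to 1.05).

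HSF1, the master factor of the heat shock response, had 1319 counts (155 CPM) in MDA PCa 2b and 660 counts (60.9 CPM) in LNCaP. Its ratio was 2.55 (2.32 to 2.80) and ranged from 2.47 to 2.71 over the scalings. The call did not survive an assumed spread of 20% between libraries, where the interval was 1.45 to 4.46. HSF1 has 13 coding exons. HSF1 is regulated largely after translation, so its RNA level does not show its activity. Relative to HSPA8 in the same library its odds ratio was 2.73 (2.48 to 3.01), which follows from the same counts.

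**Figure D3:**
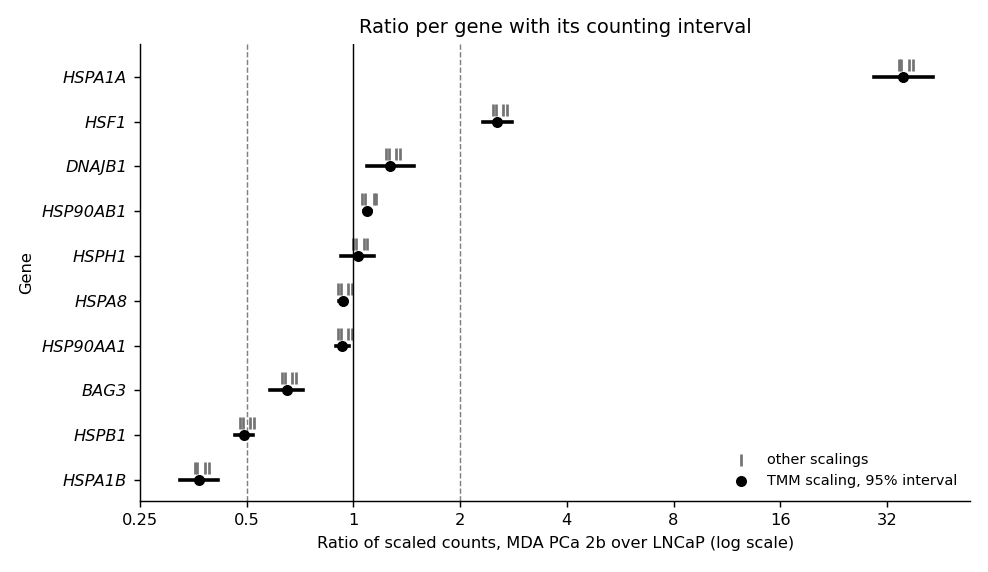
Ratio of scaled counts, MDA PCa 2b over LNCaP (log axis), for each of the 10 genes with its exact 95% counting interval (black) and the ratios under 4 other scalings (grey ticks); dashed lines mark 2-fold. HSPA1A at 35.5 and HSF1 at 2.55 lie right of the upper line, HSPA1B at 0.367 lies left of the lower line, and HSPB1 at 0.492 straddles it.

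Immediate early genes, which respond within minutes to growth factors and stress, were high in the same library as HSPA1A. Of 10 measured, 9 were called towards MDA PCa 2b and 0 towards LNCaP, beside 10.9% and 13.2% of all measured genes. The gene not called was JUN, with 27 counts in MDA PCa 2b and 34 in LNCaP. The summed levels were 4611 CPM in MDA PCa 2b and 678 CPM in LNCaP. FOS had 9295 counts in MDA PCa 2b and 758 in LNCaP (ratio 15.6, 14.5 to 16.8), and the stress-induced ATF3 had 4534 in MDA PCa 2b and 728 in LNCaP (ratio 7.93, 7.33 to 8.59). Small nucleolar and Cajal body RNAs held 6.18% of the counts in MDA PCa 2b and 1.48% in LNCaP. The part of either in the difference at HSPA1A was not tested.

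Markers of prostate luminal epithelium were read in both libraries. All 8 prostate luminal markers found in the table were measured, with a summed 3689 CPM in MDA PCa 2b and 2141 CPM in LNCaP, and KLK3, which encodes prostate-specific antigen, had 15559 counts in MDA PCa 2b and 5952 in LNCaP. Fibroblast markers summed to 3.76 CPM in MDA PCa 2b and 14.1 CPM in LNCaP, with 4 of 7 at 0 in MDA PCa 2b and 2 of 7 in LNCaP. Endothelial markers summed to 4.35 CPM in MDA PCa 2b and 3.51 CPM in LNCaP, with CDH5, KDR and TEK at 0 in both. Leukocyte markers summed to 49.5 CPM in MDA PCa 2b and 19.5 CPM in LNCaP, all but a small part from CD14 and CD68, and PTPRC, CD3E and LYZ were at 0 in both.

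The wider chaperone network was taken from 9 lists of textbook members and is described by its counts. Of 83 measured genes beside the 10, 5 were called towards MDA PCa 2b and 9 towards LNCaP, where the background was 10.9% and 13.2%, and the median log2 ratio was -0.12. The other 69 were not called. These counts were not tested against the background. The same shares of all measured genes, 10.9% towards MDA PCa 2b and 13.2% towards LNCaP, are the background for each list below.

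Other HSF1 target genes were called in both directions. Of 20 measured, 2 were called towards MDA PCa 2b and 3 towards LNCaP, and the median log2 ratio was -0.20. SERPINH1, the collagen chaperone HSP47 of the endoplasmic reticulum, had 483 counts in MDA PCa 2b and 129 in LNCaP (ratio 4.77, 3.92 to 5.84). IER5, itself an immediate early gene, had 1190 in MDA PCa 2b and 272 in LNCaP (ratio 5.57, 4.88 to 6.38). It has a single coding exon, and its LNCaP count is near the 95th percentile of olfactory receptor genes there, 264. CRYAB, the small heat shock protein alpha B crystallin, had 1 count in MDA PCa 2b and 83 in LNCaP (65.2-fold higher in LNCaP, 11.4 to 2605). HMOX1, heme oxygenase 1, had 27 counts in MDA PCa 2b and 202 in LNCaP (5.87-fold higher in LNCaP, 3.92 to 9.14). The counts of CRYAB and HMOX1 in MDA PCa 2b lie below the olfactory receptor median of 135 there. HSPA6, a strictly inducible single-exon HSP70 of human cells, had 280 counts in MDA PCa 2b and 188 in LNCaP, a ratio of 1.90 (1.57 to 2.29). At least as many counts were read for 54 of the 380 olfactory receptor genes in MDA PCa 2b and for 63 in LNCaP, so HSPA6 was not above their range in either line.

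Of the other cytosolic HSP70 and HSP110 genes, 5 of 6 were measured and 0 were called in either direction, with the median log2 ratio at 0.57. That median is the value of HSPA2, with 28 counts in MDA PCa 2b and 24 in LNCaP. At least as many counts were read for 354 of the 380 olfactory receptor genes in MDA PCa 2b and for 348 in LNCaP. The median is therefore not a reliable level for this list. HSPA4, an HSP110 relative of HSPH1, had 8507 counts in MDA PCa 2b and 6841 in LNCaP, a ratio of 1.58 (1.53 to 1.64).

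Among the J-domain co-chaperones, 1 of 14 measured was called towards MDA PCa 2b and 3 towards LNCaP, and the median log2 ratio was 0.02. DNAJA4 had 717 counts in MDA PCa 2b and 52 in LNCaP, a ratio of 17.6 (13.2 to 23.7). DNAJB4, a close relative of DNAJB1, had 63 counts in MDA PCa 2b and 330 in LNCaP, 4.11-fold higher in LNCaP (3.13 to 5.47). DNAJB5 had 18 counts in MDA PCa 2b and 89 in LNCaP, 3.88-fold higher in LNCaP (2.32 to 6.85). The LNCaP count of DNAJA4 lies below the olfactory receptor median of 89 there. The MDA PCa 2b counts of DNAJB4 and DNAJB5 lie below the median of 135 there. Whether this background reaches genes with several coding exons was not tested, so the size of these ratios is not settled. DNAJC8, a protein of the splicing machinery, had 1672 counts in MDA PCa 2b and 4971 in LNCaP, 2.33-fold higher in LNCaP (2.21 to 2.47). The other 10 were not called.

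Of the other small heat shock proteins, 5 of 8 were measured, with 0 called towards MDA PCa 2b and 2 towards LNCaP. Beside CRYAB this was HSPB11, known as an intraflagellar transport protein, with 667 counts in MDA PCa 2b and 2275 in LNCaP (2.68-fold higher in LNCaP, 2.46 to 2.92). Exchange factors and regulators of HSP70 had 0 of 7 called towards MDA PCa 2b and 1 towards LNCaP. The called gene, BAG4, had 82 counts in MDA PCa 2b and 579 in LNCaP (5.54-fold higher in LNCaP, 4.39 to 7.08). Its MDA PCa 2b count lies below the olfactory receptor median of 135 there. BAG1 had 712 counts in MDA PCa 2b and 424 in LNCaP, a ratio of 2.14 (1.89 to 2.42) that was not called.

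HSP90 co-chaperones had 1 of 14 called in each direction and a median log2 ratio of -0.07. FKBP5, an immunophilin that binds HSP90 in steroid receptor complexes and is itself induced by androgen in prostate cells, had 1408 counts in MDA PCa 2b and 670 in LNCaP (ratio 2.68, 2.44 to 2.94). PTGES3, which encodes the p23 that closes the HSP90 cycle, had 3185 counts in MDA PCa 2b and 10611 in LNCaP (2.62-fold higher in LNCaP, 2.51 to 2.72). FKBP4, the immunophilin that raises steroid receptor activity, had 3200 counts in MDA PCa 2b and 6807 in LNCaP and was 1.67-fold higher in LNCaP (1.60 to 1.74), under 2-fold. The other 12 co-chaperones, FKBP4 among them, were not called.

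The chaperonin TRiC and prefoldin, which fold actin and tubulin, had the lowest median of the chaperone lists, -0.51 in log2. Of 14 measured genes 11 were lower in MDA PCa 2b, but only CCT8 was called, with 2039 counts in MDA PCa 2b and 6158 in LNCaP (2.37-fold higher in LNCaP, 2.26 to 2.49). CCT2 was at the edge of the call, 2.09-fold higher in LNCaP (1.87 to 2.34), as was TCP1, at 1.98-fold (1.81 to 2.17). Relatives and regulators of HSF1 had 1 of 10 called towards MDA PCa 2b and 0 towards LNCaP, at a median of -0.45. The called gene was TRIM33, a ubiquitin ligase, with 542 counts in MDA PCa 2b and 221 in LNCaP (ratio 3.12, 2.67 to 3.67). HSF2, a paralog of HSF1, had 270 counts in MDA PCa 2b and 345 in LNCaP, a ratio of 0.997 (0.847 to 1.17). HSBP1, which binds HSF1, was 1.89-fold higher in LNCaP (1.72 to 2.07).

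Mitochondrial chaperones had 0 of 8 called in either direction and a median of -0.23. HSPE1, the HSP10 of mitochondria, was 1.77-fold higher in LNCaP (1.67 to 1.88), and its partner HSPD1, with which it shares a promoter, had a ratio of 0.834 (0.815 to 0.854). TRAP1, the mitochondrial HSP90, was 2.22-fold higher in LNCaP (1.99 to 2.48), with the interval just reaching below 2-fold.

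**Figure D4:**
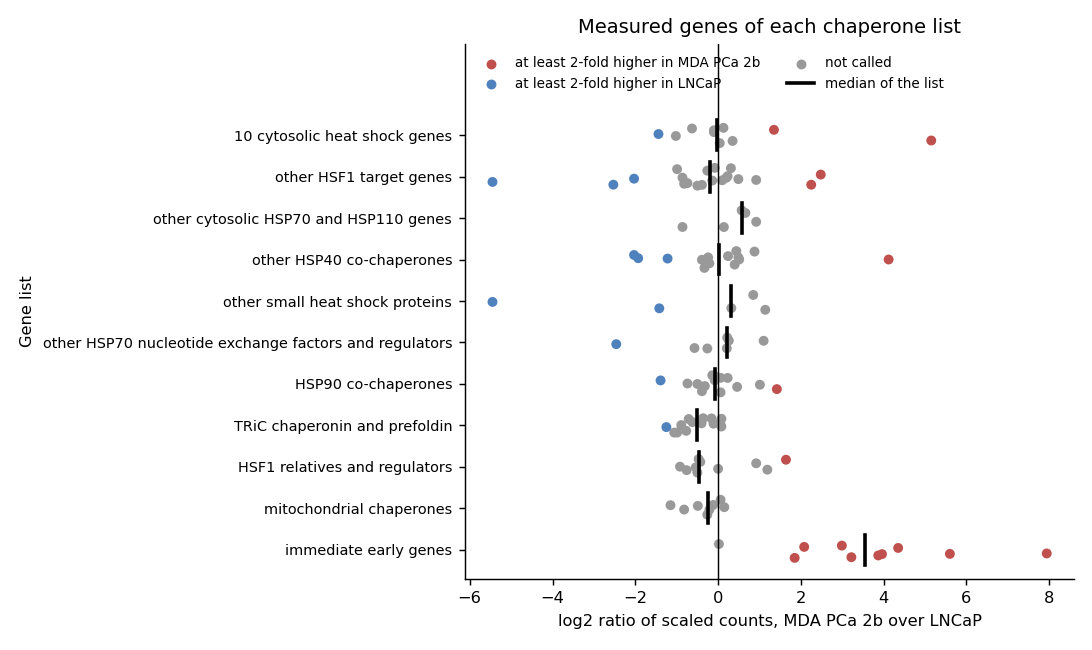
log2 ratio of scaled counts, MDA PCa 2b over LNCaP, for each measured gene of the 10 cytosolic heat shock genes, 9 other chaperone lists and the immediate early genes, with the median of each list as a black bar. Genes called, with the whole interval beyond 2-fold, are red (higher in MDA PCa 2b) or blue (higher in LNCaP). Grey genes were not called, and some of them have a ratio beyond 2-fold. The medians of the chaperone lists lie between -0.51 and 0.57, against 3.54 for the immediate early genes. The value of 0.57 is that of HSPA2, whose counts lie low within the range of olfactory receptor genes.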

How the data were processed

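AmpliSeq Transcriptome libraries were made from 10 ng of total RNA, per the labels' protocols. The authors deposited whole-number read counts per amplicon, 1 amplicon per gene and 1 column per line, with no normalization visible. The submitters' processing notes name hg19 and DESeq with no role. The aligner, counting tool and filters were not given in the sources used here.

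After removal of 10 spike-in rows with 0 counts, 20802 amplicons were used. Another 28 gene symbols had been turned into dates and were kept under their amplicon names. Library totals were multiplied by the TMM factor of edgeR 4.0.16 (0.994 for MDA PCa 2b, 1.01 for LNCaP) to scale the counts. Ratios carry Clopper-Pearson 95% intervals conditional on the sum of both counts (scipy 1.17.1), and pairs of genes a conditional odds ratio with its exact interval. PCR reads lacking molecular identifiers can copy the same molecule. The intervals therefore cover the counting error of reads only and can be too narrow for the molecules sampled. A gene was measured with at least 10 counts in a library and called when its interval lay beyond 2-fold. Log2 ratios used 0.5 added counts. With 1 library per line no model was fitted. The interval and the call were also run on simulated counts with counting error only and known library totals. That is the case the interval is built for. The simulation held no spread between libraries and no PCR copies, so it cannot show how the calls behave with them.

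The 10 genes, the lists and the pairs were chosen with earlier results of these data known. Named are the 10 genes and, of each list, up to 4 called genes in each direction, and marker genes that hold most counts. Other genes named in the text (the markers at 0, CDH5, KDR, TEK, PTPRC, CD3E and LYZ, and JUN, HSPA2, HSPA4, HSPA6, HSPA1L, BAG1, FKBP4, CCT2, TCP1, HSF2, HSBP1, HSPE1, HSPD1, TRAP1) were added after their values were seen. Of 140 list genes 137 were found; the other 3 were not analysed here. Coding exons came from GENCODE release 29, matched by symbol for 17466 amplicons (84.0%), and upstream sequences from RefSeq (GRCh38.p14). No protein sequences were used here. Alternatives were other scalings (total counts with and without small nucleolar RNAs, DESeq2 1.42.0 size factors, upper quartile), thresholds of 1.5-fold and 3-fold, other filters and added counts, and an assumed spread of 20% or 40% between libraries, as a normal interval on the log ratio.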

Additional observations from a re-analysis of the deposited data

How the results depend on the processing

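No paired analysis was possible because each line has 1 library. HSPA1A, HSPA1B and HSF1 kept their calls under all 4 other scalings, and no other gene of the 10 gained one. With an assumed spread of 20% or 40% between libraries, 1 gene (HSPA1A) stayed called towards MDA PCa 2b and 0 towards LNCaP, and the summed HSPA1A and HSPA1B ratio of 3.62 lost its call at 40% (1.19 to 11.0). A 3-fold threshold left 1 towards MDA PCa 2b and 0 towards LNCaP, a 1.5-fold threshold gave 2 in LNCaP, and summing the copies gave 0 in LNCaP. Of the other chaperone genes, 12 were called towards MDA PCa 2b and 19 towards LNCaP at 1.5-fold, and in that order 3 and 4 at 3-fold, 3 and 4 with a 20% spread, and 1 and 1 with 40%. The median log2 ratio of the 10 genes changed sign, to 0.06 with upper quartile scaling and 0.02 with totals without small nucleolar RNAs. The summed ratio of the 10 was 1.11 and 1.08 under these scalings, 1.01 with DESeq2 size factors and 1.01 without HSP90AB1. These scalings also moved the median of all measured genes, from 0.00 to 0.09 and 0.05, so the change of sign is a shift shared by all genes. With the olfactory receptor median subtracted, chosen after seeing the data, the HSPA1A ratio was 146 and that of HSPA1B 0.235. Both depend on the background chosen. Depth limits genes near 0, such as CRYAB with 1 count in MDA PCa 2b.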
